A study of Mus musculus with 8 samples.

Results

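The 10 genes Bmp10, Sln, Myl4, Myl7, Mybphl, Tmem163, Sbk3, Dkk3, Fgf12 and Stard10 were scarce together in a single library of mouse heart RNA, male replicate 4. They are 10 of the 49315 genes counted, and were chosen by their measured values, namely a joint fall in that library, so the fall is given as a description and was not tested. The study compared hearts of male and female C57BL/6 mice, a standard inbred strain, at 8 weeks of age. No treatment or genotype is given, and 4 RNA-seq libraries were made per sex, named here as male replicates 1 to 4 and female replicates 1 to 4. The labels give the tissue as heart, without naming the chambers, and leave unstated whether the libraries are of separate animals, so the spread between libraries, and every p-value built on it, may be technical.

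The atria and the ventricles of the adult mouse heart are built from different cardiomyocytes. Atrial cells use their own myosin light chains, store and secrete peptide hormones, and carry sarcolipin as a brake on the calcium pump of the sarcoplasmic reticulum, where ventricular cells rely mainly on phospholamban. A sample of whole heart therefore mixes a small atrial and a large ventricular RNA pool, and genes made mainly in atria stand for the atrial pool in such a sample.

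The atrial label was read beside lists of heart genes. These lists were chosen with earlier results of these data known, so the reading is not an independent check. In male replicate 4, Nppa, the atrial natriuretic peptide of adult hearts and not one of the 10 genes, lay at 186 CPM (counts of a gene per 1000000 counts of its library, with library sizes scaled by edgeR's TMM method), against 1134 to 1311 CPM in the other 3 male libraries and 1174 to 1342 CPM in the female libraries. The ventricular light chain Myl2 lay at 7130 CPM in male replicate 4, inside the range of 6766 to 7190 CPM in the other male libraries and of 6916 to 7671 CPM in the female libraries. The atrial marker was thus low where the 10 genes were low, and the ventricular marker was not. Nppa shares 532 exon bases with Gm13054 on the opposite strand, and the strand setting of the counting is not given in the sources used here. In bulk RNA, fewer cells of a type and less RNA per cell cannot be told apart.

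Depth did not set male replicate 4 apart on the low side. It held 47097765 counts, the most of all 8 libraries, with 39612848 to 44029869 in the other male libraries and 32746054 to 35467832 in the female libraries. A single count was worth 0.0212 to 0.0305 CPM. Mitochondrial genes took 12.1% to 12.5% of the counts in the 4 male libraries and 9.96% to 11.4% in the female libraries.

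Promoter sequence is shown for the member that fell most (Bmp10), for a member with the same motif (Mybphl) and for the most abundant member per length of transcript (Myl7). RefSeq promoter windows of build GRCm38.p6 run from 250 bases before to 50 bases after a gene's start, and 11 such windows matched 8 of the 10 genes. Capitals mark the GATA motif AGATAA in the first 2 sequences and a CArG box, the letters that serum response factor binds, in the third. Bmp10 lies at chr6:87428744-87429043 on the plus strand, Mybphl at chr3:108364661-108364960 on the plus strand and Myl7 at chr11:5898733-5899032 on the minus strand.
Bmp10: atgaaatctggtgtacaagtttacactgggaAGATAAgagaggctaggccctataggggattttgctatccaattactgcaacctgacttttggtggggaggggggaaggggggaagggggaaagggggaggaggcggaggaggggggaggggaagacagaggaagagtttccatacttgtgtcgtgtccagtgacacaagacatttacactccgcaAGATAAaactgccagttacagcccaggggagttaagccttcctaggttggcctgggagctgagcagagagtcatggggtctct
Mybphl: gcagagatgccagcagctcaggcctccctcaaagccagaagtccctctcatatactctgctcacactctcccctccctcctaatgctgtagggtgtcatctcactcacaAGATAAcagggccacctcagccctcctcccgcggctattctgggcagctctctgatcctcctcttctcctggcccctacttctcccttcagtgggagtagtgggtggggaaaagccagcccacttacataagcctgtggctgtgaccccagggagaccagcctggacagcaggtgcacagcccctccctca
Myl7: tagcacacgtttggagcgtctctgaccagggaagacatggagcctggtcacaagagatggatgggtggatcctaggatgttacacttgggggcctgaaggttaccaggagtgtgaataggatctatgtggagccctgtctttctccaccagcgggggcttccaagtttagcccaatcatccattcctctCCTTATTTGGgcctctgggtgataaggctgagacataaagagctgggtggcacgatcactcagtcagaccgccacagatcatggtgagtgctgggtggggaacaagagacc

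Motifs were searched on both strands, and a match is a description of letters, not a binding site. AGATAA began at positions -219 and -33 of Bmp10 and at -141 of Mybphl, counted from 0 at the annotated start, and 11.2% of all 32851 windows in the table held it. The CArG box began at -61 of Myl7 and at -217 of Tmem163, against 1.63% of all windows, and was searched after these windows had been seen. The window of Tmem163, chr1:127677972-127678271, lies inside the gene as counted, which ends at chr1:127679548 on the minus strand. The T-box motif AGGTGT stood in 2 of the 4 windows of Fgf12 (13.7% of all windows). Fgf12 as counted ends at chr16:28445227 on the minus strand, and all 4 windows lie beyond that end. The nearest is chr16:28446026-28446325, and the others start at chr16:28564446 or above. The nuclear receptor element AGGTCA, which shares the letters AGGT with the T-box motif, stood in 1 window of Fgf12 (16.3% of all windows). The MEF2 motif, CTA and TAG with 4 bases between them, is in 3.69% of all windows and the NKX2 motif TNAAGTG in 11.5%, and neither was in a window of these genes.

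The contractile genes of the group are the light chains Myl4 and Myl7 and the myosin-binding protein Mybphl. Myl7, the regulatory light chain of atrial myosin, gave 89.4 CPM in male replicate 4, against 464, 379.95 and 457 CPM in male replicates 1, 2 and 3 and 489, 484, 493 and 492 CPM in female replicates 1 to 4. Myl4, the essential light chain of atrial myosin, gave 132 CPM in male replicate 4, against 646, 526 and 633 CPM in male replicates 1, 2 and 3 and 641, 591, 645 and 644 CPM in female replicates 1 to 4. Mybphl, a relative of myosin-binding protein C found in atria and the conduction system, gave 11.1 CPM in male replicate 4, against 61.6, 52.6 and 58.3 CPM in male replicates 1, 2 and 3 and 53.6, 54.2, 61.4 and 57.7 CPM in female replicates 1 to 4. All 3 genes were far lower in male replicate 4 than in any other library, and the other 7 libraries lay close together. As a share of the mean of the other 3 male libraries, male replicate 4 kept 20.6% of Myl7, with a 95% Poisson interval of 20.01% to 21.3%. The share kept was 21.97% for Myl4 (21.4% to 22.5%) and 19.3% for Mybphl (17.7% to 21.1%). The intervals cover counting error in male replicate 4 only. That of Mybphl overlapped that of Myl7, and that of Myl4 lay just above both.

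Sln encodes sarcolipin, the small membrane protein that inhibits the calcium pump SERCA. It gave 30.5 CPM in male replicate 4, against 155, 129 and 144 CPM in male replicates 1, 2 and 3 and 128, 138, 154 and 137.5 CPM in female replicates 1 to 4. The 7 other libraries of both sexes overlapped, and male replicate 4 stood alone below them with 21.4% of the mean of the other male libraries (20.3% to 22.5%). Of the other SERCA regulators listed, Pln, which encodes phospholamban, lay at 103% of that mean in male replicate 4 and Mrln, which encodes myoregulin, at 84.4%. Atp2a1, the pump isoform of fast skeletal muscle, lay at 53.1%, and Atp2a2, the cardiac isoform, at 109%.

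The secreted members are Bmp10 and Dkk3. Bmp10, a ligand of the BMP family made by atrial myocytes that signals through the endothelial receptor ALK1, gave 14.1 CPM in male replicate 4. It gave 126, 115 and 116 CPM in male replicates 1, 2 and 3 and 135, 132, 121 and 122 CPM in female replicates 1 to 4. With 11.8% of the mean of the other male libraries (10.9% to 12.7%), or 8.48-fold lower, it fell furthest of the 10 genes, and its interval did not reach that of any other member. Dkk3, a secreted glycoprotein of the Dickkopf family, gave 22.7 CPM in male replicate 4, against 88.9, 80.0 and 80.5 CPM in male replicates 1, 2 and 3 and 93.3, 98.1, 112 and 100.1 CPM in female replicates 1 to 4. Its share in male replicate 4 was 27.3% (25.6% to 29.0%). For Dkk3 all male libraries lay below all female libraries, also with male replicate 4 left aside.

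Fgf12 and Sbk3 stand for signalling at the membrane and inside the cell. Fgf12, an intracellular FGF homologous factor that binds voltage-gated sodium channels, gave 1.81 CPM in male replicate 4, from 83 counts. It gave 10.4, 8.44 and 8.78 CPM in male replicates 1, 2 and 3 and 8.75, 8.82, 9.89 and 9.39 CPM in female replicates 1 to 4. Sbk3, which encodes an SH3 domain binding kinase family member, gave 16.2 CPM in male replicate 4, against 70.9, 59.7 and 58.1 CPM in male replicates 1, 2 and 3 and 60.3, 81.9, 77.7 and 71.2 CPM in female replicates 1 to 4. Both were lowest in male replicate 4, at 19.7% of the mean of the other male libraries for Fgf12 (15.7% to 24.4%) and 25.8% for Sbk3 (23.98% to 27.7%). Sbk3 varied most among the other 7 libraries, and its male and female values overlapped.

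Tmem163 and Stard10 are the zinc transporter and the lipid transfer protein of the group. Tmem163 gave 2.31 CPM in male replicate 4, from 106 counts, against 12.9, 12.6 and 12.02 CPM in male replicates 1, 2 and 3 and 12.1, 12.4, 13.2 and 11.9 CPM in female replicates 1 to 4. Stard10, which carries phospholipids through its START domain, gave 39.7 CPM in male replicate 4, against 95.5, 91.3 and 91.8 CPM in male replicates 1, 2 and 3 and 85.3, 85.0, 89.8 and 85.8 CPM in female replicates 1 to 4. The share kept was 18.5% for Tmem163 (15.1% to 22.3%) and 42.7% for Stard10 (40.8% to 44.8%). Stard10 fell least of the 10 genes, 2.34-fold, and was the gene for which male replicates 1 to 3 all lay above the female libraries.

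**Figure D1:**
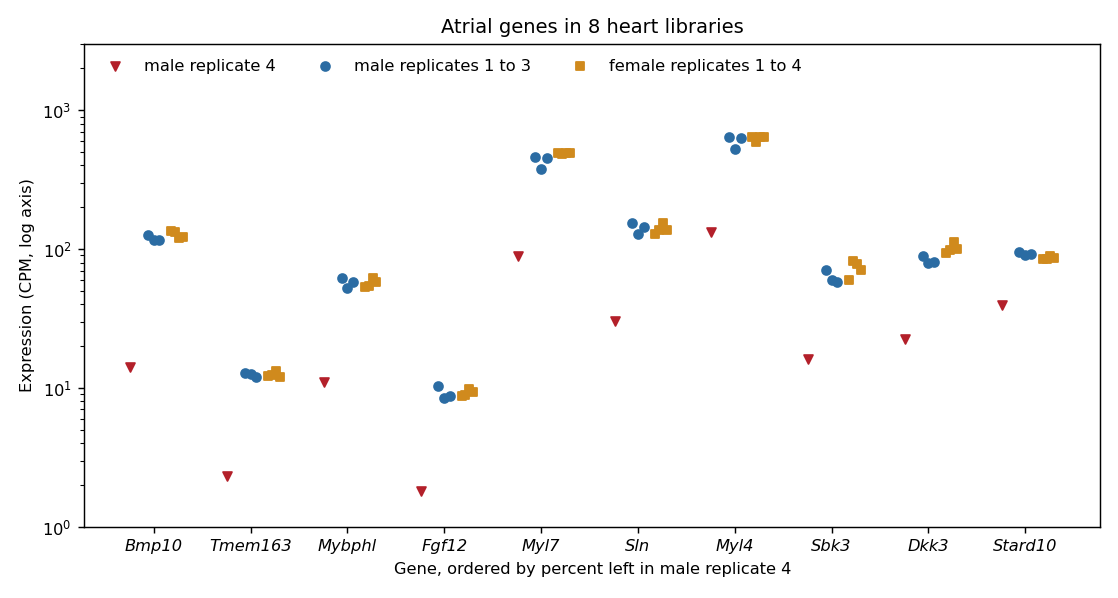
Expression of the 10 atrial genes in CPM on a log axis, a point per library, with male replicate 4, male replicates 1 to 3 and female replicates 1 to 4 side by side for each gene. Genes run from the lowest share kept in male replicate 4 (Bmp10, 11.8%) to the highest (Stard10, 42.7%), and male replicate 4 is the lowest point for all 10.

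The fall was thus graded. On the log2 scale, the ratio of male replicate 4 to the mean of the other male libraries ran from -3.08 for Bmp10 to -1.23 for Stard10, with -2.44 for Tmem163, -2.37 for Mybphl, -2.34 for Fgf12, -2.28 for Myl7, -2.23 for Sln, -2.19 for Myl4, -1.95 for Sbk3 and -1.88 for Dkk3. The median of the 10 genes was -2.25, while the median over all 16180 genes tested was -0.01. If a gene were made in the atria alone and at an even rate, the share kept would equal the share of the atrial pool left in male replicate 4. Read on that scale, the 6 genes from Tmem163 to Myl4 kept between 18.5% and 21.97% with intervals that overlapped their neighbours, Bmp10 kept less, and Sbk3, Dkk3 and Stard10 kept more by value. Whether a larger share kept stands for RNA from other chambers was not tested.

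All 10 genes were at or below 50% in male replicate 4, and all 10 were below each of the other 7 libraries, which follows from how they were chosen. Over all genes tested, 1.24% were at or below 50% and 0.34% were at least 2-fold above the mean of the other male libraries, and 14.4% were below and 13.8% above all 7 other libraries. Among the 12168 genes with a mean of at least 1 log2 CPM, 59 (0.485%) were at or below 50%, the 10 genes included, and 42 of the 59 were below all 7 other libraries. Bmp10 had the rank 2 from the bottom among these 12168 genes, Tmem163 rank 5, Mybphl rank 6, Fgf12 rank 8, Myl7 rank 10, Sln rank 11, Myl4 rank 12, Sbk3 rank 20, Dkk3 rank 23 and Stard10 rank 42. The number of genes at or below 50% was second to that of male replicate 3. It was 201 in male replicate 4, against 109, 136 and 260 in male replicates 1, 2 and 3 and 130 to 195 in the female libraries, each set against the other 3 libraries of its sex.

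**Figure D2:**
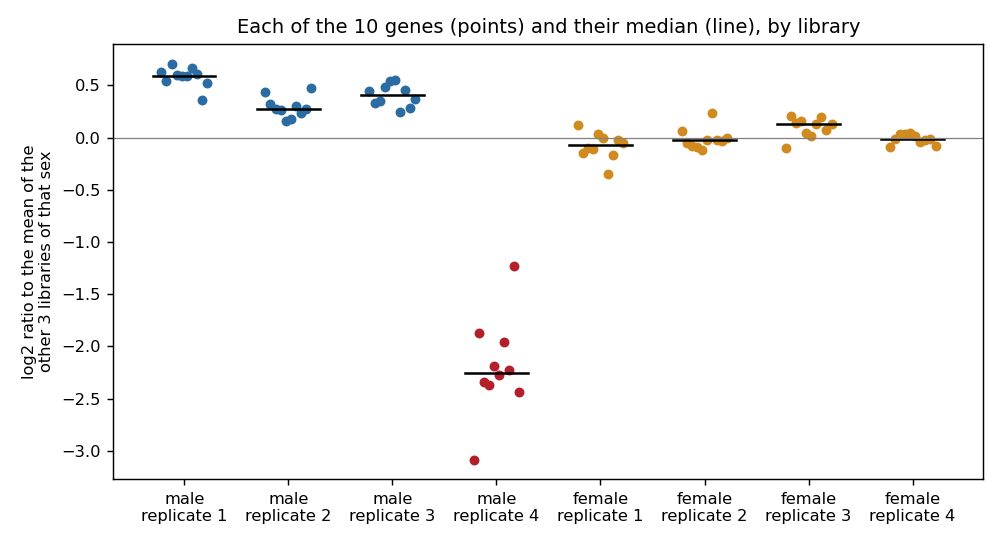
Log2 ratio of each of the 10 genes (points) in each library to the mean of the other 3 libraries of its sex, with the median as a line. The median is -2.25 in male replicate 4 and between -0.07 and 0.13 in the female libraries; male replicates 1 to 3 lie above 0 (0.27 to 0.59) because male replicate 4 is part of the mean they are set against.

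Levels per length of transcript put the 10 genes in a different order. In CPM per kilobase of summed exon length, male replicate 4 had 152 for Myl7, against a mean of 789 in the other 7 libraries, and 28.5 for Myl4, against 133. Sln had 23.2 in male replicate 4, against 107, and Mybphl had 8.72, against 44.7. Myl7 was the highest of the 10 genes in both, with a summed exon length of 590 bases, and the other 3 contractile and calcium genes followed in the other 7 libraries. Stard10 had 16.4 CPM per kilobase in male replicate 4, against 36.9, Dkk3 had 6.75, against 27.8, Bmp10 had 3.13, against 27.6, and Sbk3 had 5.07, against 21.4. Fgf12 at 0.591, against 3.003, and Tmem163 at 0.539, against 2.90, were the scarcest. Stard10 passed Mybphl in male replicate 4 and Sbk3 passed Bmp10, so the order within the group was not the same in that library.

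The 10 genes lie on 7 chromosomes, with 3 on chromosome 7 and 2 on chromosome 11. In the deposited GRCm38 coordinates, Bmp10 spans chr6:87428994-87437677, Sln chr9:53850164-53854560, Mybphl chr3:108364911-108380057 and Stard10 chr7:101317086-101346626 on the plus strand, with Myl4 at chr11:104550663-104595753 on the same strand. On the minus strand lie Myl7 at chr11:5896637-5898782, Tmem163 at chr1:127486546-127679548, Sbk3 at chr7:4965260-4971168, Dkk3 at chr7:112116017-112159057 and Fgf12 at chr16:28160120-28445227. Sbk2, a paralog of Sbk3 at chr7:4940512-4964406 on the same strand, ends 853 bases from it with 0 genes between them. Exons of Tmem163 share 152 bases with Mgat5 on the opposite strand, and those of Mybphl share 89 bases with Gm12522. Without a known strand setting, reads from such pairs cannot be told apart.

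Apart from male replicate 4, the 10 genes varied no less than other genes, by the median. Over the other 7 libraries the coefficient of variation was 4.01% for Tmem163, 4.46% for Stard10, 6.14% for Bmp10, 6.46% for Mybphl, 7.29% for Myl4, 7.60% for Fgf12, 7.76% for Sln and 8.66% for Myl7. It was larger for Dkk3 (12.3%) and Sbk3 (13.7%), which also differed most between the sexes. The median of the 10 genes was 7.45%, against 6.35% over the genes with a mean of at least 1 log2 CPM. Among these 7 libraries male replicate 2 was the lowest for 6 of the 10 genes and male replicate 1 the highest for 5.

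Other atrial genes were taken from a list of 18. Of these, 4 were at or below 50% in male replicate 4 and 14 were below all 7 other libraries, with a median log2 ratio of -0.40; over all genes tested these shares were 1.24% and 14.4%. Nppa kept 15.0%. Hamp, which encodes the iron hormone hepcidin, kept 26.8%, with 1.505 CPM in male replicate 4, against 4.59 to 7.06 CPM in the other male libraries and 5.04 to 6.80 CPM in the female libraries. Sbk2 kept 41.9%, with 12.7 CPM, against 29.7 to 31.1 CPM in the other male libraries and 31.9 to 36.4 CPM in the female libraries. Cacna2d2, an auxiliary subunit of voltage-gated calcium channels, kept 43.8%, with 5.08 CPM, against 10.03 to 12.4 CPM in the other male libraries and 10.02 to 12.6 CPM in the female libraries. These 4 were below all other libraries, and Nppa fell further than any of the 10 genes except Bmp10. Genes of the list outside the naming rule, chosen after their values were seen, kept more. The connexin gene Gja5 kept 50.1%, the peptide-amidating enzyme Pam 65.0%, Tbx5, a T-box transcription factor, 76.2%, the potassium channel genes Kcnj3 76.6% and Kcna5 99.0%, and the Notch effector Hey1 110%. The 18 genes summed to 1686 CPM in male replicate 4, against 3081 to 3295 CPM in the other male libraries and 3239 to 3583 CPM in the female libraries. Nppa gave 186 CPM of that sum in male replicate 4, against 1134 to 1311 CPM in the other male libraries. Pam gave 695 CPM of it, against 1028 to 1107.5 CPM in the other male libraries. The difference in the sum thus mostly follows Nppa and Pam and says little on the rest of the list. The 10 genes summed to 360.05 CPM in male replicate 4, against 1455 to 1731 CPM in the other male libraries and 1686 to 1777 CPM in the female libraries.

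Ventricular and general cardiomyocyte genes stayed near the other libraries. Of 12 ventricular genes tested, 0 were at or below 50%, 1 was below and 1 above all 7 other libraries, and the median log2 ratio was 0.04. Kcnj2, an inward rectifier potassium channel, stood at 115% of the mean of the other male libraries, Kcnip2, a subunit of the transient outward current, at 113%, Mpped2 at 111% and the Notch effector Hey2 at 92.0%. Of 15 pan-cardiomyocyte genes, 0 were at or below 50%, 0 were below and 3 above all 7 other libraries, with a median log2 ratio of 0.02. Titin (Ttn) stood at 121%, the calcium release channel Ryr2 at 116%, the pump Atp2a2 at 109% and the myosin heavy chain Myh6, which both chambers use in adult mice, at 108%. Of 12 sinus node and conduction genes, 1 was at or below 50%, Cpne5 at 43.0%, and the median was -0.02. The pacemaker factor Shox2 stood at 82.0% and the T-box factor Tbx18 at 128%.

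**Figure D3:**
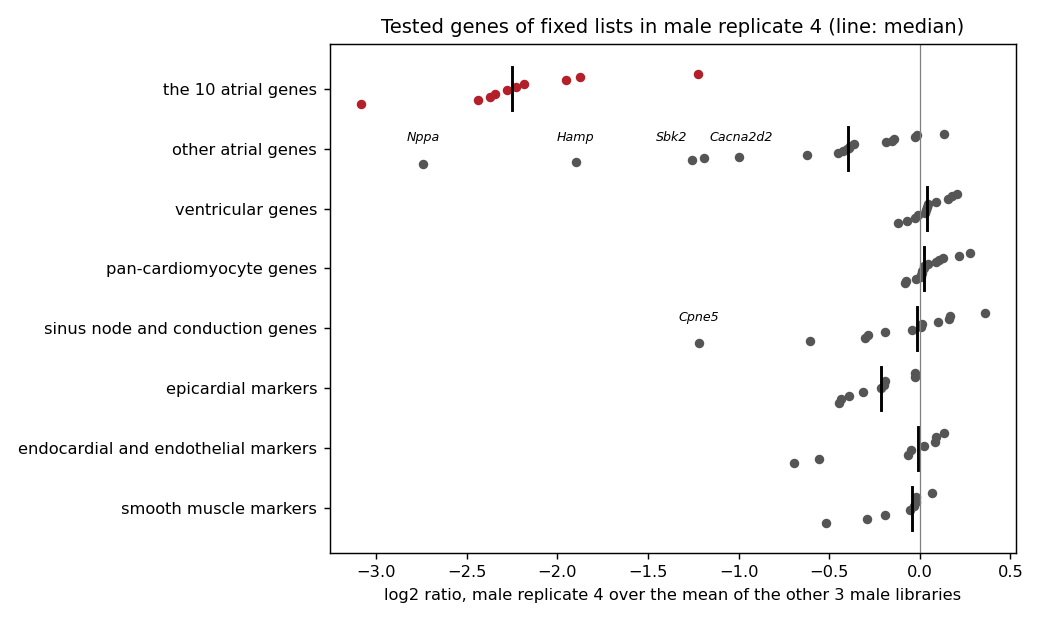
Log2 ratio of male replicate 4 to the mean of the other 3 male libraries for each tested gene of 8 lists, with the median as a line. The 10 atrial genes have a median of -2.25 and the other atrial genes of -0.40, with Nppa, Hamp, Sbk2 and Cacna2d2 lowest, while the ventricular (0.04) and pan-cardiomyocyte (0.02) medians lie near 0.

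Markers of further cell types of heart tissue were read in the same library. All 9 epicardial markers had a log2 ratio below 0, with a median of -0.21. Of the 9, 4 were below all 7 other libraries, against 14.4% of all genes tested. Their summed level was 95.3 CPM in male replicate 4, against 109 to 115 CPM in the other male libraries and 103 to 127 CPM in the female libraries. The uroplakin genes Upk3b and Upk1b kept 80.6% and 73.4%, and the keratin genes Krt19 and Krt8 kept 76.4% and 73.9%. These 4 were the lowest of the list, while Tcf21 and Aldh1a2 hardly moved, at 98.1% each. Epicardial markers thus moved the same way as the 10 genes but less far, and their part in the result was not tested. The 8 tested endocardial and endothelial markers summed to 1206 CPM in male replicate 4, inside the 1154 to 1252 CPM of the other male libraries and the 1174 to 1330 CPM of the female libraries. Of the 8, Npr3, a natriuretic peptide receptor of the endocardium, kept 68.1% and Plvap, a protein of endothelial diaphragms, kept 61.8%, both below all other libraries.

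Smooth muscle markers summed to 2960 CPM in male replicate 4, against 2975 to 3123 CPM in the other male libraries and 2746 to 2986 CPM in the female libraries. Des (desmin) alone gave 2455 CPM of that sum in male replicate 4. The sum thus mostly follows Des and says little on the rest of the list. In that list Cnn1 (calponin) kept 69.9%, Eln (elastin) 81.8%, Tagln (transgelin) 87.6% and Myh11, the smooth muscle myosin, 105%. Adipocyte markers went the other way, with a median log2 ratio of 1.14 over 9 genes. They summed to 558 CPM in male replicate 4, against 486 to 518 CPM in the other male libraries and 585 to 768 CPM in the female libraries. Fabp4, which also stands in the endothelial list, gave 517 CPM of that sum in male replicate 4. It gave 466 to 503 CPM in the other male libraries and 497 to 553 CPM in the female libraries. The sum thus mostly follows Fabp4 and does not show the size of the difference in the rest of the list. Cidec stood at 316%, Retn at 242%, Cfd at 222% and Ucp1 at 19.4% of the mean of the other male libraries. Leukocyte markers summed to 36.4 CPM in male replicate 4, against 28.1 to 97.0 CPM in the other male libraries and 32.5 to 41.7 CPM in the female libraries. Erythroid markers summed to 3292 CPM in male replicate 4, against 2518 to 7629 CPM in the other male libraries and 556 to 8803 CPM in the female libraries. Both lay within the range of the other male libraries. Nerve and Schwann markers summed to 12.9 CPM in male replicate 4, against 13.5 to 15.0 CPM in the other male libraries and 15.8 to 16.5 CPM in the female libraries. Lung markers summed to 1.57 CPM in male replicate 4, against 0.984 to 2.03 CPM in the other male libraries and 1.79 to 22.03 CPM in the female libraries, and the surfactant gene Sftpc was at 0 counts in all 4 male libraries. The part of these cell types in the fall was not tested.

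Most relatives of the members by pathway stayed closer to the other libraries. Among 12 tested myosin light chain and binding protein genes, the 3 members Myl4, Myl7 and Mybphl were the ones at or below 50%, and the median log2 ratio was -0.08. Myl1, a light chain of fast skeletal muscle, kept 63.8%. Among 18 tested BMP ligands, receptors and targets, Bmp10 was the 1 gene at or below 50%, and the median was -0.07. Bmp2 stood at 84.1%, Bmp7 at 90.9% and the inhibitory Smad7 at 109%, and Acvrl1, which encodes the BMP10 receptor ALK1, had 42.2 CPM in male replicate 4, against 40.6 to 43.8 CPM in the other male libraries. The ligand was thus low in a library whose receptor RNA was not.

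In the list of Dickkopf and Wnt inhibitors, 2 of 9 tested genes were at or below 50%, Dkk3 and Sfrp5. Sfrp5, a secreted Wnt antagonist, had 3.51 CPM in male replicate 4, against 8.67 to 10.4 CPM in the other male libraries and 7.39 to 10.3 CPM in the female libraries, and kept 36.8%. Sfrp2 stood at 85.0% and Wif1 at 121%. Of 9 FGF homologous factors and sodium channel genes Fgf12 was the 1 at or below 50%, with Fgf14 at 81.2%, Fgf13 at 109%, Scn10a at 80.3% and the channel subunit Scn4b at 132%. Of 11 SBK kinase, START domain and Tmem163 relatives 3 were at or below 50%, namely Sbk3, Sbk2 and Stard10, while Sbk1 stood at 121%.

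Genes with the most similar profile were sought over the 8 libraries, by the root mean square difference in log2 CPM from the mean centred profile of the 10 genes. The nearest genes outside the group were Cilp2 at 0.09, Ppp1r1b at 0.12, Mlana at 0.18, Nppa at 0.19, Hamp at 0.21, Rxfp1 at 0.21, Plekha7 at 0.25, Sbk2 at 0.30, Sds at 0.31 and Lmntd1 at 0.33. The members themselves ranged from 0.06 (Fgf12) to 0.36 (Stard10), with Bmp10 at 0.31. Genes with a mean under 1 log2 CPM and clone names were left out of this ranking. The profile is led by the fall in male replicate 4, so the nearest genes had to be low there, and kept between 15.0% (Nppa) and 44.7% (Lmntd1). Over the other 7 libraries alone, their difference from the profile of the 10 genes ran from 0.07 (Nppa) to 0.22 (Sds). Cilp2, which encodes a cartilage matrix protein, had 4.75 CPM in male replicate 4, against 18.9 to 21.8 CPM in the other male libraries and 20.005 to 27.02 CPM in the female libraries. Ppp1r1b, the phosphatase inhibitor DARPP-32, had 1.37 CPM in male replicate 4, against 5.86 to 6.34 CPM in the other male libraries and 6.10 to 7.96 CPM in the female libraries. Rxfp1, the relaxin receptor, had 0.894 CPM in male replicate 4, against 2.83 to 3.66 CPM in the other male libraries and 3.74 to 4.89 CPM in the female libraries. Each of these 3 genes lay below all other libraries in male replicate 4.

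A low ratio alone did not single out such genes. Among genes with a mean of at least 1 log2 CPM and a name other than a clone name, the lowest non-members were Slc15a2 at 9.11%, Nppa at 15.0%, Ucp1 at 19.4%, Hspa1b at 20.2%, Ppp1r1b at 22.5%, Cilp2 at 22.9%, Fos at 23.2%, Acp5 at 24.2%, Mlana at 24.8% and Cd72 at 25.4%. Several of them also varied among the other male libraries, from 1.34 to 23.7 CPM for Acp5, 2.04 to 22.6 CPM for Cd72, 3.27 to 10.4 CPM for Slc15a2 and 17.5 to 49.4 CPM for the heat shock gene Hspa1b. The highest were Cidec at 316%, Igkc at 279%, Pck1 at 266%, Cfd at 222% and Plin1 at 220%.

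The study's own contrast is male against female, and male replicate 4, the library in which the 10 genes were scarce, is part of it. Each gene was tested with edgeR's quasi-likelihood test on all 8 libraries and again on the 7 without male replicate 4, and a gene was called at a Benjamini-Hochberg adjusted p under 0.05, the adjustment running over the whole table. A log2 fold change is male minus female, and its standard error (SE) is its size over the root of the F statistic. With 8 libraries the contrast holds the library on which the genes were chosen, so those values are a description. With 7 libraries it does not.

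With all 8 libraries, 0 of the 10 genes were called, against 3.79% of the 16180 genes tested (2.03% higher and 1.76% lower in males). An unadjusted p under 0.05 was found for 0 of the 10 with edgeR, and DESeq2 and limma-voom also called 0. All 10 fold changes were negative, with a median of -0.36. The largest were -0.57 for Dkk3 (SE 0.30, adjusted p = 0.32), -0.51 for Sbk3 (SE 0.32, adjusted p = 0.41) and -0.50 for Myl7 (SE 0.36, adjusted p = 0.49). The male and female libraries did not overlap for 2 of the 10 genes, Myl7 and Dkk3, against 12.1% of all genes tested.

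Without male replicate 4, the fold changes moved towards 0 and the SE shrank. The SE with 8 libraries was 3.22 to 8.63 times that with 7, least for Sbk3 and most for Bmp10. Now 6 of the 10 fold changes were negative and 4 positive, with a median of -0.03. Of the 10 genes 1 was called, Dkk3, against 2.67% of the 16257 genes tested (1.47% higher and 1.2% lower in males). The sexes did not overlap for 3 of the 10, Myl7, Dkk3 and Stard10, against 17% of all genes tested. These shares rest on 10 genes only, and no test was made of them.

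Dkk3 was lower in males, with 83.1 ± 4.99 CPM in male replicates 1 to 3 and 101 ± 8.12 CPM in the 4 female libraries (SD). Its log2 fold change was -0.28 (SE 0.06, edgeR adjusted p = 0.044), and all 3 male libraries lay below all 4 female libraries. The call held with DESeq2 (adjusted p = 0.001) and limma-voom (adjusted p = 0.045). It was lost without male replicate 2 or 3 (edgeR adjusted p = 0.14 each), without female replicate 2 (0.071), 3 (0.063) or 4 (0.08), and the fold change stayed between -0.33 and -0.23 when a library was left out.

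Myl7 and Stard10 came next by p. Myl7 averaged 433 ± 46.4 CPM in male replicates 1 to 3 and 490 ± 3.85 CPM in the female libraries, a log2 fold change of -0.18 (SE 0.06, edgeR adjusted p = 0.17). Stard10 averaged 92.9 ± 2.28 CPM in these males and 86.5 ± 2.26 CPM in the females, a log2 fold change of 0.10 (SE 0.04, edgeR adjusted p = 0.17). Both had no overlap between the sexes, and neither passed the threshold. Sbk3 averaged 62.9 ± 6.97 CPM in these males and 72.8 ± 9.40 CPM in the females, with overlap and a log2 fold change of -0.21 (SE 0.10, edgeR adjusted p = 0.28).

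The other 6 genes differed little between the sexes in the 7 libraries. Bmp10 averaged 119 ± 6.05 CPM in male replicates 1 to 3 and 127 ± 7.26 CPM in the females, a log2 fold change of -0.10 (SE 0.05, edgeR adjusted p = 0.34) in place of -0.46 (SE 0.44) with 8 libraries. Myl4 averaged 602 ± 65.9 CPM in these males and 630 ± 26.4 CPM in the females, a log2 fold change of -0.07 (SE 0.07, edgeR adjusted p = 0.65). Sln averaged 143 ± 12.8 CPM in males and 139 ± 11.1 CPM in females, with a log2 fold change of 0.04 (SE 0.07). The male and female values overlapped for all 3. Mybphl averaged 57.5 ± 4.56 CPM in males and 56.8 ± 3.60 CPM in females (log2 fold change 0.02, SE 0.06). Tmem163 averaged 12.5 ± 0.456 CPM in males and 12.4 ± 0.595 CPM in females (0.01, SE 0.06). Fgf12 averaged 9.19 ± 1.02 CPM in males and 9.21 ± 0.533 CPM in females (-0.0032, SE 0.09). The edgeR adjusted p of Sln, Mybphl, Tmem163 and Fgf12 lay between 0.84 and 0.99, and a p above the threshold does not show that the sexes have the same level.

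**Figure D4:**
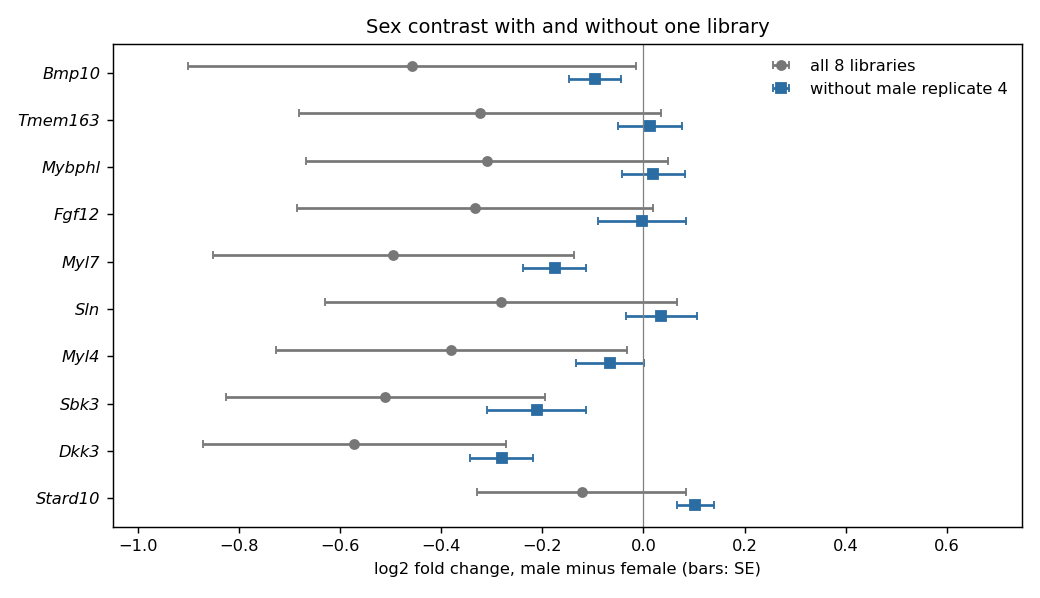
Log2 fold change, male minus female, of the 10 genes with its SE as a bar, with all 8 libraries and without male replicate 4. With 8 libraries all 10 values are negative with wide bars (median -0.36); without male replicate 4 they lie between -0.28 (Dkk3) and 0.10 (Stard10).

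Some of the listed heart muscle and pathway genes were called between the sexes, and no test was made of the counts per list. Over all genes tested, 2.03% were called higher and 1.76% lower in males with 8 libraries. With 7 libraries these shares were 1.47% and 1.2%. Of the other 18 atrial genes, 0 were higher and 1 lower in males (Tbx5) with 7 libraries, and Tbx5 was also called lower with 8. Tbx5 averaged 35.8 ± 1.85 CPM in male replicates 1 to 3, with 27.3 CPM in male replicate 4, and 44.8 ± 2.39 CPM in the female libraries. Its log2 fold change was -0.33 without male replicate 4 (SE 0.05, edgeR adjusted p = 0.01) and -0.42 with it (edgeR adjusted p = 0.02), and no male library reached a female one. Of the 18 BMP genes, 2 were higher in males with 8 libraries (Id1 and Id3) and 1 with 7. Id3, a target of BMP signalling, averaged 65.9 ± 3.53 CPM in male replicates 1 to 3 and 53.3 ± 1.88 CPM in the female libraries, and had a log2 fold change of 0.31 without male replicate 4 (SE 0.05, edgeR adjusted p = 0.0072). Of the 9 Dickkopf and Wnt inhibitor genes, 2 were lower in males with 8 libraries (Sfrp1 and Frzb) and 2 with 7 (Dkk3 and Frzb). Frzb, a secreted Wnt antagonist, averaged 3.67 ± 0.0906 CPM in male replicates 1 to 3 and 5.08 ± 0.535 CPM in the female libraries, and had a log2 fold change of -0.47 without male replicate 4 (SE 0.11, edgeR adjusted p = 0.047). None of the tested myosin light chain, SERCA, FGF and sodium channel or SBK and START genes was called in either fit, nor any of the 12 ventricular and 12 conduction genes, and of the 15 pan-cardiomyocyte genes Tcap was called higher in males in both. Adipocyte markers differed most of the lists of other cell types, with 8 of 9 genes called lower in males in both fits. Retn, which encodes the hormone resistin, had 1.35 CPM in male replicate 4 and 0.559 ± 0.106 CPM in male replicates 1 to 3, against 3.48 ± 0.501 CPM in the 4 female libraries (SD). Its log2 fold change was -2.63 without male replicate 4 (SE 0.19, edgeR adjusted p = 5e-05) and -2.18 with it (edgeR adjusted p = 0.0014). Of the 10 atrial genes, Dkk3 was lower in males alongside these markers, and their part in that difference was not tested.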

How the data were processed

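Gene expression was measured by RNA-seq of total RNA from 8 heart samples, 4 male and 4 female. For the deposited raw counts, the submitters' processing notes list featureCounts, Subread 1.5.2, STAR 2.5.2b, Trimmomatic 0.36 and the build GRCm38 (mm10); annotation version and strand setting are not given in the sources used here. The authors also deposited a normalized signal for 16160 genes, which equals the count divided by a size factor per library (0.863 to 1.196), with 100% of values whole within 0.01 when multiplied back. Of 49315 IDs, 48970 matched a symbol.

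Genes passed filterByExpr at a count of 10 and a total of 15, with TMM scaling, and edgeR 4.0.16 in R 4.3.3 gave the quasi-likelihood test. CPM rest on TMM-scaled sizes; for log2 CPM, 2 was the prior count. Alternatives were DESeq2 1.42.0, limma-voom (limma 3.58.1), other scalings and filters, a replicate block and each library left out. The procedure was tested on simulated data.

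The members and the 18 further lists (193 genes) were chosen with earlier results of these data known. Named genes are all members, up to 4 genes per list with the largest ratio in male replicate 4 (mean log2 CPM from 0 up), the 10 genes of most similar profile, and the 10 lowest and 5 highest genes in male replicate 4 (both from a mean log2 CPM of 1 up), without clone names. Most others are said to be chosen after their values were seen or are the genes called in a list. Myl2, Pln, Fgf13, Acvrl1, Sftpc, Des, Fabp4, Tcf21 and Aldh1a2 are genes of the lists named outside these rules. Mgat5, Gm12522 and Gm13054 are named for their overlap with other named genes. Some genes of the lists are not reported here.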

Additional observations from a re-analysis of the deposited data

Results flagged for a closer look

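In each sex the highest and the lowest of the 4 libraries were compared with the others for each of the 10 genes, by whether the gap to the nearest library exceeded Dixon's critical share of the range. Male replicate 4 stood apart among the males for Bmp10 (14.07 CPM), Tmem163 (2.311 CPM), Dkk3 (22.66 CPM) and Stard10 (39.69 CPM), and these values are those on which the genes were chosen, so no chance rate bears on them. Among the 10 female groups, of which chance alone marks about 1 in 20, replicate 2 stood apart on the low side for Myl4 (590.8 CPM) and replicate 3 on the high side for Stard10 (89.84 CPM).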

How the results depend on the processing

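The median log2 ratio of the 10 genes in male replicate 4, -2.25, was -2.29 against the mean of all 7 other libraries and -2.27 on unscaled totals, and lay between -2.33 and -2.19 when another male library was left out. Against all 7 other libraries the ratio of Dkk3 moved to -2.04 and that of Stard10 to -1.17.

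With 8 libraries, 613 genes were called by edgeR, 964 by DESeq2, 427 with the replicate number as a block, and 315 to 490 with any library dropped (315 without male replicate 3, 354 without female replicate 2, 379 without female replicate 3). Members called were 0, and 0 to 1 if a library is dropped (1, Dkk3, without male replicate 4). With 7 libraries 434 genes were called, 973 without a filter, 746 by DESeq2, 268 with the replicate block and 119 to 304 when 1 library was dropped: 217, 195 and 119 without male replicates 1, 2 and 3, and 197, 280 and 275 without female replicates 2, 3 and 4. Members called were 1, 0 with the block (Dkk3 adjusted p = 0.12), and 0 to 1 with a library left out. Libraries of the same number did not deviate together (r = 0.024, -0.016, 0.054 and -0.047 for replicates 1 to 4), so the numbers pair nothing.

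Without male replicate 4 the fold change turned positive for Sln (0.0351), Mybphl (0.0196), Tmem163 (0.0126) and Stard10 (0.103); with any library left out of the 8 their lowest values were -0.462, -0.486, -0.476 and -0.222. In the 7 libraries, values near 0 changed sign: Fgf12 to 0.0019 without a filter, 0.0022 with the block and between -0.099 and 0.0528 with a library left out, and Tmem163 to -0.0068 with the block. With a library left out Tmem163 ranged from -0.0114 to 0.0457, Sln from -0.0293 to 0.09995, Mybphl from -0.0346 to 0.0783 and Myl4 from -0.123 to 0.0201. The cause of these changes was not tested. With 1 low library, the fall has no replicate, and Fgf12 (83 counts) and Tmem163 (106 counts) limit how finely the shares kept can be ranked.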
